A study of Mus musculus with 6 samples.

Results

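The genes described here were 10 glycolysis and hypoxia response genes, namely the transcription factor gene *Hif1a*, the glucose transporter gene *Slc2a1*, and the glycolytic genes *Hk2*, *Hk3*, *Pfkl*, *Pfkfb3*, *Aldoa*, *Eno1*, *Pkm* and *Ldha*. They were chosen by symbol and not by their measured values. By the symbols of the GENCODE M21 mouse annotation, each matched 1 of the 49315 Ensembl genes listed (M21 holds a further *Aldoa* identifier that is not listed), and all 10 were among the 16134 genes with enough counts to be tested. RNA was sequenced from F4/80-positive cells of the liver, a fraction that holds its resident macrophages (Kupffer cells), with 1 library per mouse from 3 WT and 3 Lpcat3 KOMac mice. WT mice were Lpcat3 fl/fl LysM +/+ littermates and Lpcat3 KOMac mice were Lpcat3 fl/fl LysM Cre/+, so both genotypes carried the floxed *Lpcat3* alleles and differed in the Cre allele. The LysM locus drives Cre in myeloid cells, which include monocytes and neutrophils as well as macrophages. All mice were on a C57BL/6N background, were placed on a high-fat diet (60% fat) as young adults, stayed on it for 16 weeks and received no other treatment. The study used males and females, and the sample labels do not give the sex of each mouse.

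Glycolysis converts glucose to pyruvate in the cytosol and yields ATP without oxygen, and lactate dehydrogenase then reduces pyruvate to lactate. HIF1A is the oxygen-sensitive subunit of hypoxia-inducible factor 1, which binds DNA with its partner ARNT and raises transcription of many glycolytic genes. In macrophages this program is best known for its activity after inflammatory stimulation as well as under low oxygen. Hepatocytes have their own isoenzymes, such as liver pyruvate kinase in glycolysis, and also store and release glucose.

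Libraries held between 44954224 and 71392812 counts on genes. *Lpcat3* itself was at 85.0, 66.2 and 61.2 CPM (counts per library size, with TMM scaling for composition) in the WT libraries and 19.6, 33.3 and 19.4 CPM in Lpcat3 KOMac mice 1 to 3, a level of 0.34-fold. It was not called by edgeR (adjusted p = 0.9999, unadjusted p = 0.00119) and was called by DESeq2 (adjusted p = 0.00286). The libraries differed most in hepatocyte transcripts: the summed level of 10 markers such as *Alb*, each detected in every library, was 25610, 2555 and 2405 CPM in the WT mice (numbers 1 to 3) and 6106, 15890 and 5707 CPM in Lpcat3 KOMac mice 1 to 3. WT mouse 1 and Lpcat3 KOMac mouse 2 were thus the highest, and the genotypes overlapped. The 10 Kupffer cell markers, all present, summed to between 38160 and 51770 CPM in WT and between 30790 and 40510 CPM in Lpcat3 KOMac libraries. All 10 had negative log2 fold changes, 4 of them (*Clec4f*, *C1qa*, *C1qb* and *C1qc*) with an unadjusted p under 0.05 (edgeR). Over all genes tested, 2.64% passed that threshold, 40.1% of estimates were positive and the median was -0.04. The 8 monocyte and recruited macrophage markers had positive estimates, with a median of 0.53, and 2 of them (*Spp1*, 1.81, and *Chil3*, 1.70) had an unadjusted p under 0.05. These 2 and *Gpnmb* were higher in Lpcat3 KOMac libraries without overlap, beside 2.29% of all genes tested. The monocyte and recruited macrophage list summed to 294.5, 140.8 and 539 CPM in WT and to 582, 538 and 536 CPM in Lpcat3 KOMac libraries. Only WT mouse 3 reached the Lpcat3 KOMac range. Sums of sinusoidal endothelial, stellate, neutrophil, lymphocyte, erythroid and tissue dissociation markers also overlapped between genotypes. In this order, 6 of 8, 7 of 7, 6 of 7, 6 of 8, 4 of 5 and 4 of 10 markers tested had positive estimates. Their medians were 0.41, 0.36, 0.81, 0.10, 0.58 and -0.19. An unadjusted edgeR p under 0.05 was found for *Kdr*, *S100a8*, *Cd3d* and *Atf3*, all with positive estimates. *Csf3r* held 78.4 of the 82.2 CPM of the neutrophil sum in WT mouse 1. Of the defining neutrophil markers, *Ly6g* had 3 counts or fewer in every library. For hepatocyte transcripts, fits with their level as a covariate and fits without the libraries concerned are given below. The part of the other markers was not tested. In bulk RNA, fewer cells of a type and less RNA per cell cannot be told apart.

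For none of the 10 genes was a difference between genotypes detected. With edgeR's quasi-likelihood test and Benjamini-Hochberg adjustment, 0 of 10 had an adjusted p under 0.05, against 0% of all genes tested, and the adjusted p was 0.9999 for each. DESeq2 also called 0 of 10, against 0.0744% of all genes. At an unadjusted p under 0.05 edgeR passed 0 of 10, against 2.64% of all genes. The estimates were small: the log2 fold change of Lpcat3 KOMac against WT ran from -0.11 (*Hk3*) to 0.28 (*Slc2a1*), with 8 positive and 2 negative values and a median of 0.06. Over all genes tested the median was -0.04, and 40.1% of genes were positive. The 95% intervals of all 10 genes lay within a 2-fold change in either direction, and those of 7 lay within a 1.5-fold change. With hepatocyte transcripts as a covariate, 0 of the 10 were called and 0 had an unadjusted p under 0.05, beside 9.17% of all genes. The 3 wider intervals belonged to *Slc2a1*, from 0.90 to 1.62 times the WT level, *Hk2*, from 0.74 to 1.52 times, and *Ldha*, from 0.54 to 1.65 times.

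**Figure D1:**
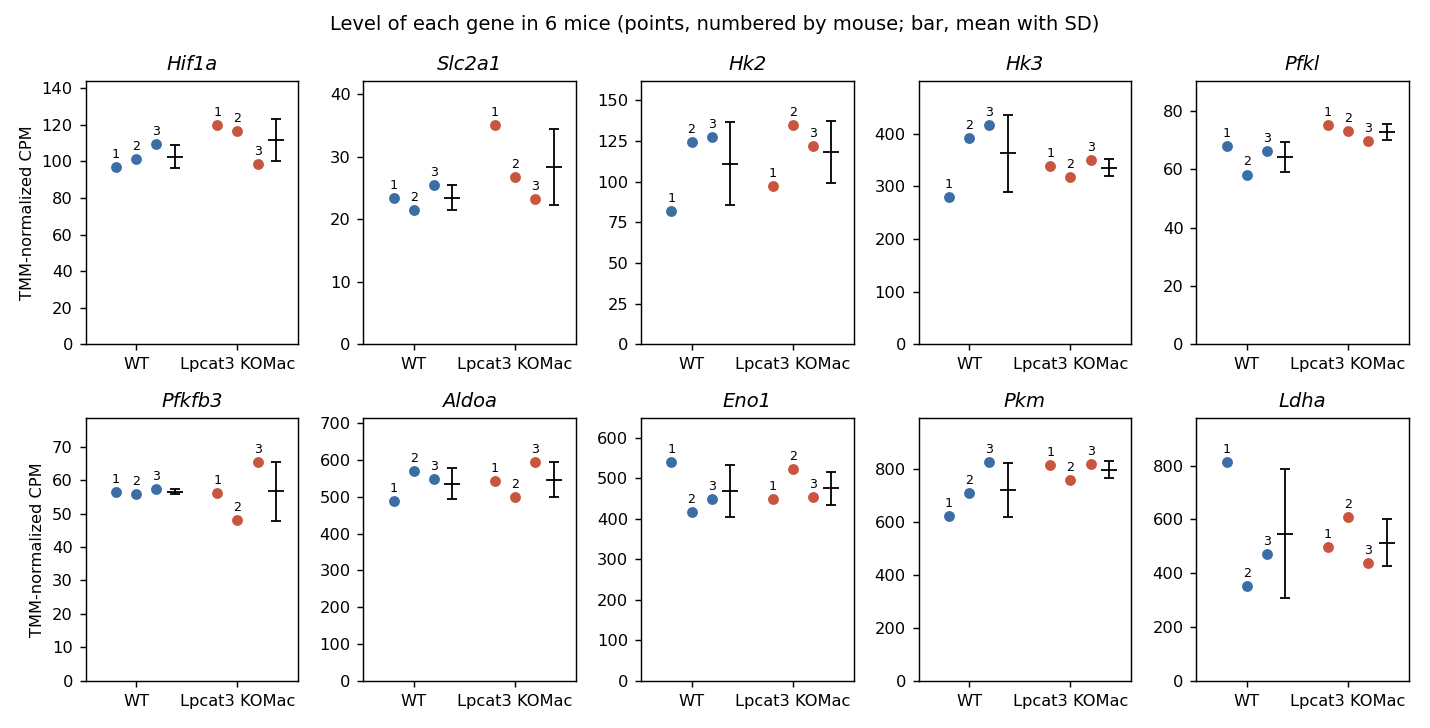
TMM-normalized CPM (vertical axes, each from 0) of the 10 genes in 3 WT (blue) and 3 Lpcat3 KOMac (red) mice, 1 numbered point per mouse, with the mean and SD in black. The points of the genotypes overlap for every gene except *Pfkl*, and *Ldha* of WT mouse 1 stands at 815 CPM.

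*Hif1a* (chr12:73901375-73947530, plus strand, GRCm38) encodes the regulated subunit of HIF1. It was at 97.0, 101.5 and 110 CPM in the WT mice, and at 120, 117 and 98.8 CPM in the Lpcat3 KOMac mice, each in the order 1 to 3. Lpcat3 KOMac mouse 3 lay among the WT mice and the other 2 above them, so the groups overlapped. The means were 103 ± 6.51 CPM (SD, n = 3) in WT and 112 ± 11.5 CPM in Lpcat3 KOMac cells, with a log2 fold change of 0.12 ± 0.11 (SE). Without Lpcat3 KOMac mouse 3 this value was 0.23, with an unadjusted edgeR p of 0.0497, a threshold that 2.31% of all genes passed in that fit.

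*Slc2a1* (chr4:119108711-119137983, plus strand) encodes GLUT1, the transporter that brings glucose into most macrophages. Its CPM was 23.4, 21.5 and 25.5 in WT and 35.1, 26.8 and 23.3 in Lpcat3 KOMac mice. Lpcat3 KOMac mouse 1 was the highest of the 6 and Lpcat3 KOMac mouse 3 lay within the WT range. The log2 fold change of 0.28 (standard error 0.17) was the largest positive value of the 10 genes. It became 0.13 without Lpcat3 KOMac mouse 1 and 0.43 without Lpcat3 KOMac mouse 3, the latter with an unadjusted edgeR p of 0.0415.

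The hexokinases trap glucose in the cell as glucose 6-phosphate. *Hk3* (chr13:55005985-55021385, minus strand), a form typical of myeloid cells, was at 280, 393 and 417 CPM in WT and at 338, 318 and 350 CPM in Lpcat3 KOMac mice. WT mouse 1 was the lowest of the 6 and the other 2 WT mice were the highest. The log2 fold change was -0.11 (standard error 0.16), and without WT mouse 1 it was -0.27 with an unadjusted edgeR p of 0.0281, in a fit where 12.3% of all genes were under 0.05. *Hk2* (chr6:82725025-82774454, minus strand), the mitochondrion-bound hexokinase of many activated cells, was at 81.9, 124 and 127 CPM in WT and at 97.4, 135 and 122 CPM in Lpcat3 KOMac mice. Mouse 1 was the lowest of its genotype in both, and the groups overlapped. The log2 fold change of 0.09 (standard error 0.21) turned to -0.09 without WT mouse 1 and to 0.25 without Lpcat3 KOMac mouse 1.

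Phosphofructokinase commits sugar to glycolysis, and *Pfkl* encodes its liver-type subunit. *Pfkl* (chr10:77986947-78010083, minus strand) was at 67.9, 58.2 and 66.2 CPM in WT and at 75.2, 73.1 and 69.9 CPM in Lpcat3 KOMac mice. All 3 Lpcat3 KOMac mice were above all 3 WT mice, which held for *Pfkl* alone among the 10 genes. Over all genes tested, 2.29% were higher without overlap in Lpcat3 KOMac libraries and 5.2% lower. The means were 64.1 ± 5.17 CPM (SD, n = 3) in WT and 72.7 ± 2.70 CPM in Lpcat3 KOMac cells, with a log2 fold change of 0.18 (SE 0.09, 95% interval from -0.04 to 0.40). The unadjusted edgeR p was 0.0873, and the exact permutation test (two-sided) gave 0.1, which is the smallest p that 3 mice against 3 allow.

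*Pfkfb3* (chr2:11471433-11554077, minus strand) encodes the kinase that makes fructose 2,6-bisphosphate, the strongest activator of phosphofructokinase. It was at 56.5, 55.8 and 57.2 CPM in WT and at 56.1, 48.1 and 65.5 CPM in Lpcat3 KOMac mice. The WT mice lay close together and the Lpcat3 KOMac mice on both sides of them, with SDs of 0.725 and 8.70 CPM. The log2 fold change was 0.00 (standard error 0.12).

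*Aldoa* (chr7:126795234-126809108, minus strand), the aldolase of most tissues, splits fructose 1,6-bisphosphate. It was at 488, 569 and 548 CPM in WT and at 543, 500 and 596 CPM in Lpcat3 KOMac mice, the narrowest range of the 10 genes. Its lowest and highest libraries differed by 1.22 times and the groups overlapped, with a log2 fold change of 0.03 ± 0.11 (SE). *Eno1* (chr4:150236721-150248879, plus strand), the main enolase outside muscle and neurons, was at 541, 418 and 448 CPM in WT and at 449, 523 and 453 CPM in Lpcat3 KOMac mice. WT mouse 1 and Lpcat3 KOMac mouse 2 were the highest, and the log2 fold change was 0.02 (standard error 0.13).

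*Pkm* (chr9:59656368-59679375, plus strand) encodes the pyruvate kinase of non-hepatocyte tissues. It was at 623, 707 and 827.5 CPM in WT and at 815.5, 759 and 818 CPM in Lpcat3 KOMac mice. WT mice spanned a wider range than Lpcat3 KOMac mice and enclosed all 3 of them, with a log2 fold change of 0.15 ± 0.12 (SE). *Ldha* (chr7:46841475-46855627, plus strand) encodes the lactate dehydrogenase subunit that favours lactate formation. It was at 815, 354 and 471 CPM in WT and at 498, 608 and 437 CPM in Lpcat3 KOMac mice. The 2 highest libraries were WT mouse 1 and Lpcat3 KOMac mouse 2. The log2 fold change was -0.09 (standard error 0.33), the least precise of the 10, and it was 0.32 without WT mouse 1.

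**Figure D2:**
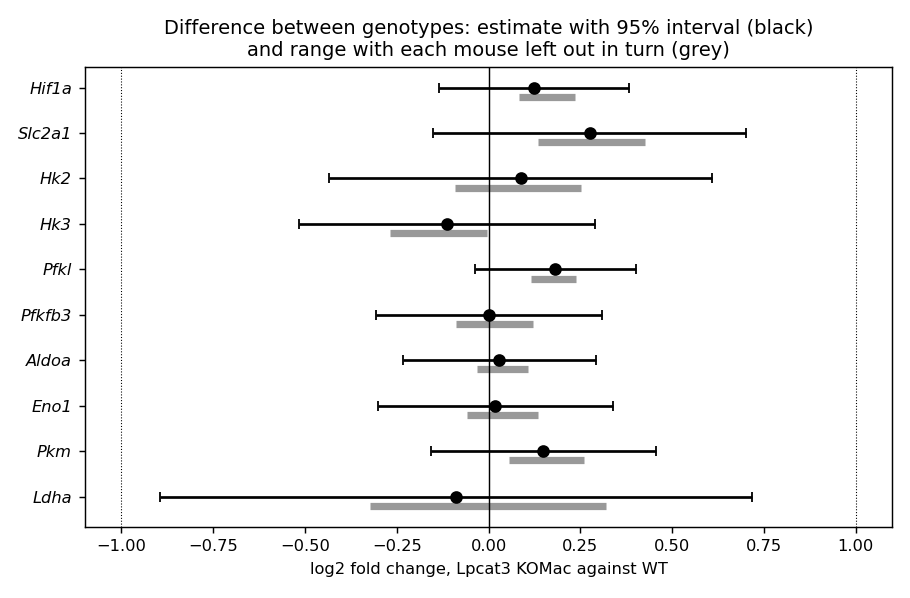
Log2 fold change of Lpcat3 KOMac against WT (horizontal axis) for the 10 genes: edgeR estimate with its 95% interval in black, and in grey the range over fits without 1 mouse each. Dotted lines mark a 2-fold change. Every interval includes 0, and *Ldha* has the widest, from -0.89 to 0.72.

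Levels of the 10 genes were compared with each other only per kilobase of exonic length. On this scale (CPM per kilobase, mean of the 6 libraries) *Ldha* was at 160, *Pkm* at 152 and *Aldoa* at 144, and the ranges of these 3 genes over libraries overlapped. *Hk3* followed at 94.8 and *Eno1* at 87.8, again with overlapping ranges. *Hk2* at 19.2, *Hif1a* at 18.2 and *Pfkl* at 15.6 formed the next level, and *Pfkfb3* at 7.48 and *Slc2a1* at 7.40 the lowest. The ranges of neighbours within each of these levels overlapped, and the range of *Ldha*, from 107 to 246, also reached that of *Hk3*. Differences between genes within a library were not tested. The ratio of the highest to the lowest of the 6 libraries had a median of 1.34 over the 10 genes. It ran from 1.22 for *Aldoa* to 2.30 for *Ldha*. The median was 1.35 over the 6292 tested genes whose mean CPM, without length correction, was at least that of *Slc2a1*.

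Reads from near-identical sequences limit how well some of these levels belong to 1 gene. Of all 50-base stretches in the annotated *Eno1* transcripts, 26.0% also occurred in transcripts of other genes, mostly *Eno1b*, to which at most 43 counts were assigned in a library. For *Pkm* the share was 25.8%, and *Gm49759*, which shares 767 exonic bases with it on the same strand, held at most 1266 counts against at least 35429 for *Pkm*. The share was 9.26% for *Ldha*, 6.43% for *Aldoa*, 5.74% for *Hif1a*, 1.54% for *Slc2a1*, 0.376% for *Pfkfb3* and 0.0298% for *Pfkl*. It was 0 for *Hk2* and *Hk3*. On the opposite strand, *Hif1a* overlaps *Gm15283*, *Slc2a1* overlaps *Gm12868*, *Aldoa* overlaps *Fam57b* and *Hk3* overlaps *Unc5a*. The highest count of these partners in any library was 273 (*Unc5a*), against at least 16461 for *Hk3*. The deposited *Aldoa* row spans both GENCODE M21 genes of that symbol, while the other 9 genes have the same start and end as in M21.

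The promoters of the 10 genes share a sequence feature. Promoter sequence was not used in choosing the genes, but a set named for hypoxia response is not independent of HIF1 core letters. HIF1 binds the core letters ACGTG or GCGTG, and at least 1 such core on either strand lay within 250 bases before an annotated transcript start in all 10 genes (15 of their 17 RefSeq start sites). In the same window it was found at 38.6% of 32851 mouse start sites and for 41.5% of 27025 genes. Of 24 further hypoxia response genes, 19 had a window and 17 of these held a match. Both cores contain a CpG, and the median number of CpG dinucleotides was 18 in the windows of the 10 genes and 6 over all windows. The part of CpG content in the match count was not tested. A match is a description of letters and not a binding site, and no binding was measured here.

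The following stretches of 60 bases before a start site (RefSeq, GRCm38.p6, 5′ to 3′ on the strand of the gene) are examples. They carry matches of the transporter, of a hexokinase, of the committed step and its activating kinase, and of the lactate step. Stretches of the other genes, which also held matches, are not shown. Capitals mark either core or its reverse complement, and a palindromic stretch of capitals is a match on both strands. The windows are *Slc2a1* at chr4:119108669-119108728 (plus strand), *Hk2* at chr6:82774474-82774533 (minus), *Pfkl* at chr10:78009874-78009933 (minus), *Pfkfb3* at chr2:11502111-11502170 (minus) and *Ldha* at chr7:46845734-46845793 (plus).
Slc2a1: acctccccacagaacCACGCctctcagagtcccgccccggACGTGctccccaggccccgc
Hk2: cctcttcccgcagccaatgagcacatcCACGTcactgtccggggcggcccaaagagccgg
Pfkl: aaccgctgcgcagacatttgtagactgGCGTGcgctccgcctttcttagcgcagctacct
Pfkfb3: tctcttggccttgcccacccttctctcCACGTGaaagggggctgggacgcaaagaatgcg
Ldha: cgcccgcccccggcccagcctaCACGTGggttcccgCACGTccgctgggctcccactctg
The *Ldha* stretch holds 3 matches, while *Slc2a1* and *Pfkfb3* hold 2 each and *Hk2* and *Pfkl* 1 each. The genes with these matches had log2 fold changes on both sides of 0 (0.28 for *Slc2a1* and -0.09 for *Ldha*), and none passed the test.

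In the rest of glycolysis too, no gene passed the adjusted test. Of 24 other genes of glucose transport, glycolysis and lactate export, 23 were tested and 0 were called. At an unadjusted p under 0.05, 1 was higher and 0 were lower in Lpcat3 KOMac cells, beside 2.64% of all genes tested. The median log2 fold change was 0.05. DESeq2 called 0 genes of this list and 0 of each list below. The gene that passed was *Aldoc*, a minor aldolase best known from brain, with 5.62, 3.21 and 3.17 CPM in WT and 6.72, 7.42 and 6.12 CPM in Lpcat3 KOMac mice. All 3 Lpcat3 KOMac mice were above all WT mice, as for 2.29% of all genes tested. The log2 fold change of *Aldoc* was 0.75 ± 0.28 (SE), with an unadjusted edgeR p of 0.0361. *Gapdh*, *Tpi1* and *Pgk1*, enzymes of the middle of the pathway, were the most abundant per kilobase of this list. *Gapdh* was at 1059, 737 and 772 CPM in WT and at 848, 964 and 809 CPM in Lpcat3 KOMac mice, with a log2 fold change of 0.03 ± 0.17 (SE). *Tpi1* and *Pgk1* had log2 fold changes of 0.07 and 0.09. The estimates of the list ran from -0.41 for *Slc2a6*, a lysosomal glucose transporter, to 0.86 for the neuronal enolase *Eno2*, which did not exceed 1.27 CPM. Without Lpcat3 KOMac mouse 2 the estimate of *Slc2a6* was -0.08, and that of *Eno2* ran from 0.49 to 1.55 as single mice were left out.

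Several genes of the pathway had the same 2 libraries as their highest or their lowest. *Eno1* and *Ldha* were highest in WT mouse 1 and Lpcat3 KOMac mouse 2, the libraries with the most hepatocyte transcripts, and *Aldoa* and *Hk3* were lowest in those libraries. *Gpi1*, *Tpi1*, *Gapdh*, *Pgk1* and *Pgam1* had the same 2 highest libraries, while *Slc2a6*, *Hk1* and *Adpgk* had them as their 2 lowest. Of the 6292 genes with a mean CPM at least that of *Slc2a1*, 20.8% were highest in these 2 libraries and 27.9% lowest. This pair of libraries was picked after the values were seen and is a description. Fitted without both libraries, with 2 mice against 2, none of the 10 genes had an adjusted or an unadjusted p under 0.05. The log2 fold changes of *Ldha* and *Hk2* were then 0.18 and -0.20, in both cases opposite in sign to the value over 6 mice, and those of *Eno1* and *Hk3* were 0.06 and -0.23.

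**Figure D3:**
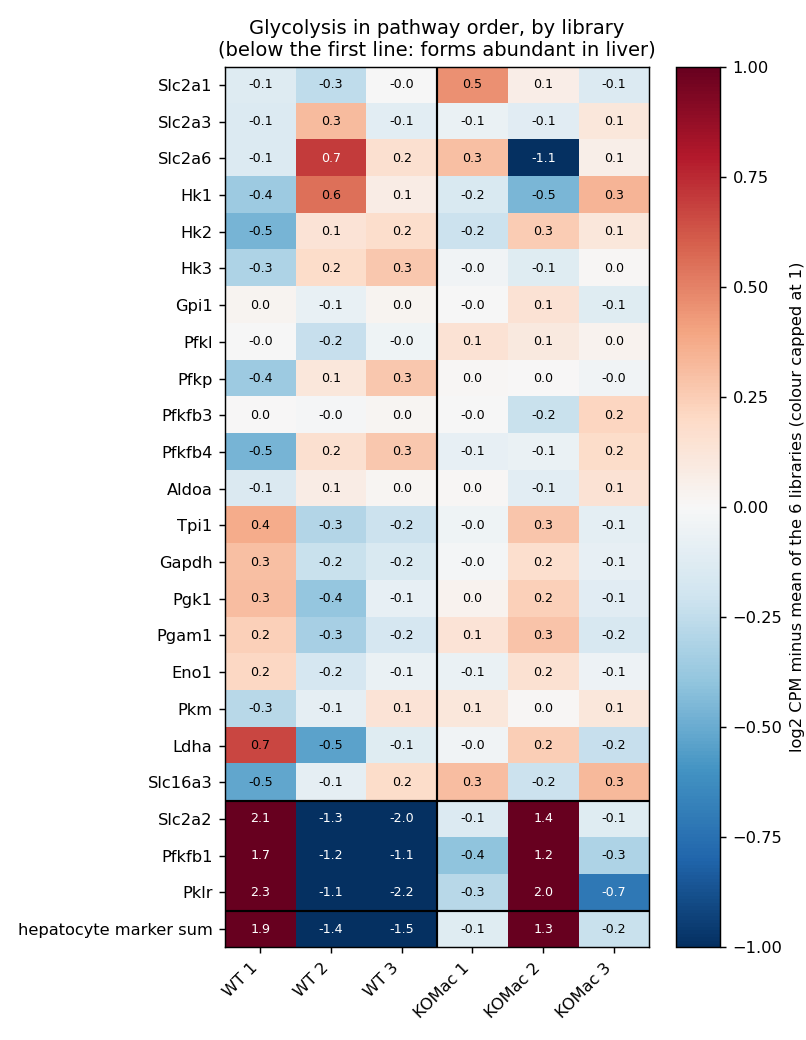
Log2 CPM minus the mean of the 6 libraries (colour, capped at 1, values in the cells) for genes of glycolysis in pathway order, 3 forms abundant in liver and the summed hepatocyte markers, with 1 column per library and a line between genotypes. *Tpi1*, *Gapdh*, *Pgk1*, *Pgam1*, *Eno1* and *Ldha* are highest in WT 1 and KOMac 2, as are the liver forms *Slc2a2*, *Pfkfb1* and *Pklr*, whose differences are larger. *Slc2a6*, *Hk1*, *Hk3*, *Aldoa* and *Slc16a3* are lowest in these libraries.

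Isoenzymes of hepatocytes made up a variable share of several families, computed from CPM per kilobase. *Pkm* gave 70.8%, 96.9% and 98.7% of pyruvate kinase transcripts in WT and 95.1%, 78.5% and 96.4% in Lpcat3 KOMac mice, with the rest from the liver and red cell gene *Pklr*. The lowest *Pkm* shares were those of WT mouse 1 and Lpcat3 KOMac mouse 2.

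*Slc2a1* gave between 14.3% and 32.0% of the 5 glucose transporter transcripts compared, while the hepatocyte transporter *Slc2a2* ranged from 6.09% to 56.0%. *Slc2a2* was highest in WT mouse 1 (56.0%) and Lpcat3 KOMac mouse 2 (47.6%). *Slc2a6* ranged from 12.3% to 49.7%.

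In other families, *Pfkl* gave between 61.6% and 68.1% of phosphofructokinase transcripts, *Eno1* between 92.3% and 95.9% of enolase transcripts and *Ldha* between 97.7% and 98.7% of those of *Ldha* and *Ldhb*. *Pfkfb3* gave between 36.8% and 44.7% of its family and *Pfkfb4* between 28.2% and 46.1%, while *Pfkfb1*, the form of liver, ranged from 3.16% to 23.0%. No share of the 10 genes was tested between genotypes.

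**Figure D4:**
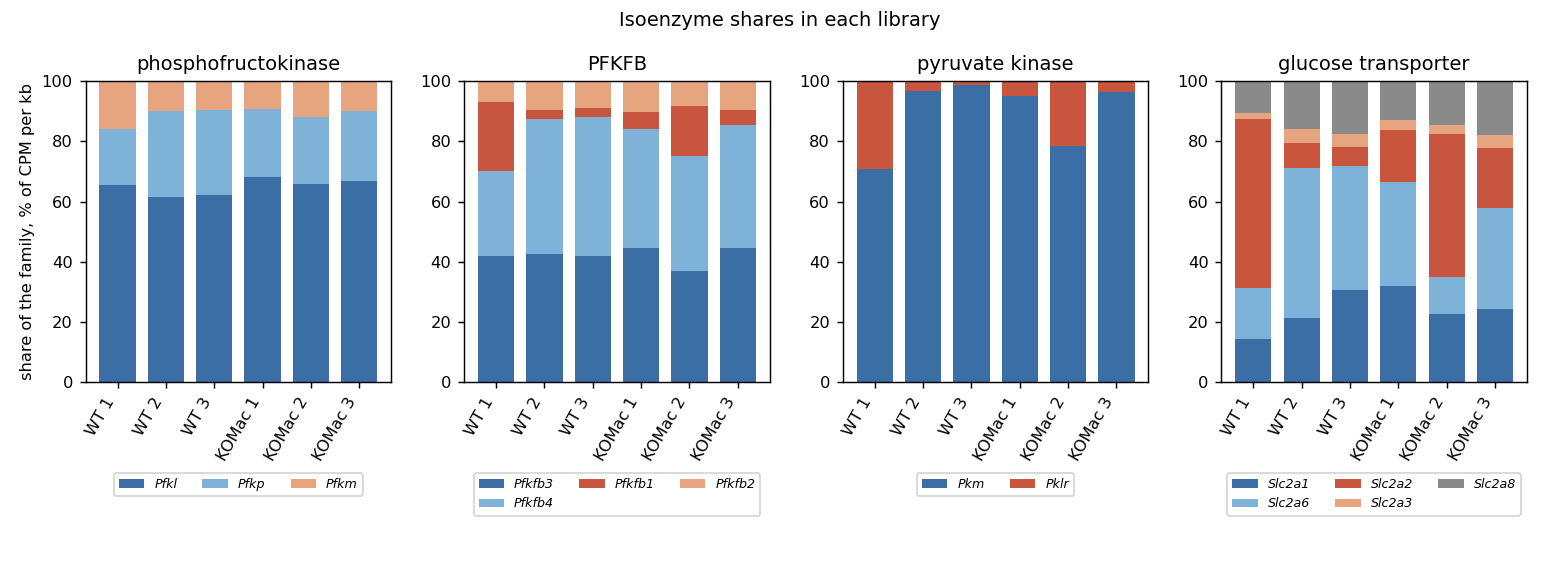
Share of each family (vertical axis, percent of CPM per kilobase, bars stacked to 100) by isoenzyme in the 6 libraries for phosphofructokinases, PFKFB kinases, pyruvate kinases and glucose transporters. The red segments, the liver forms *Pfkfb1*, *Pklr* and *Slc2a2*, are largest in WT 1 and KOMac 2, where *Pklr* reaches 29.2% and 21.5%.

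The hepatocyte enzymes of glucose metabolism followed these libraries. All 8 listed genes, among them *Fbp1* (a gluconeogenic phosphatase), *Khk* (which phosphorylates fructose), *Pck1* (which starts gluconeogenesis from oxaloacetate) and *G6pc* (which releases free glucose), were highest in WT mouse 1 and Lpcat3 KOMac mouse 2. *Pck1* was at 801, 63.8 and 35.6 CPM in WT and at 99.5, 235 and 101 CPM in Lpcat3 KOMac mice, with a log2 fold change of -1.05 ± 1.23 (SE). *G6pc* had a log2 fold change of 0.42 ± 1.18 (SE), and *Fbp1* and *Khk* were at -0.27 and -0.34. None of the 8 was called and none had an unadjusted p under 0.05. The median log2 fold change of the list was -0.18 over all mice and 2.19 without WT mouse 1, where 5 of the 8 had an unadjusted p under 0.05 (edgeR), beside 12.3% of all genes in that fit. With all 6 mice the median was also positive under limma-voom (0.61) and with the replicate block (0.91).

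No difference was detected among other genes known to respond to low oxygen. Of 24 listed hypoxia response genes beyond the 10 above, 23 were tested, 0 were called and 0 had an unadjusted p under 0.05, with a median log2 fold change of 0.06. *Hmox1*, which degrades heme and is abundant in Kupffer cells, was at 1476, 1372 and 1187 CPM in WT and at 1401, 1074 and 1739 CPM in Lpcat3 KOMac mice. Its log2 fold change was 0.06 (standard error 0.20). *Plin2*, a lipid droplet coat protein, and *Mif*, a macrophage cytokine, had log2 fold changes of 0.08 and 0.11. Precision differed within the list. The confidence interval ran from 0.75 to 1.46 times the WT level for *Hmox1*. It ran from 0.33 to 5.5 times for *Vegfa*, 0.18 to 6.4 times for *Bnip3* and 0.31 to 5.3 times for *Egln3*. *Vegfa*, *Bnip3* and *Egln3* were highest in WT mouse 1 and Lpcat3 KOMac mouse 2, the libraries with the most hepatocyte transcripts. With intervals this wide, no conclusion is drawn for these genes. *Ero1l*, an oxidase of the endoplasmic reticulum, was the only gene of this list whose groups did not overlap. It was higher in Lpcat3 KOMac mice, as were 2.29% of all genes tested without overlap. The log2 fold change of *Ero1l* was 0.14, with an unadjusted edgeR p of 0.206.

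*Ddit4*, an inhibitor of mTORC1 that responds to hypoxia and to other stresses, gave the most negative estimate, and 1 library decided it. It was at 113 CPM in WT mouse 1 and at 5.51 and 8.42 CPM in the other WT mice, beside 8.82, 11.9 and 4.91 CPM in Lpcat3 KOMac mice. The log2 fold change was -2.31 (standard error 1.26) over all mice and 0.30 without WT mouse 1. *Ak4*, a mitochondrial adenylate kinase, gave the largest positive estimate, 0.60 (standard error 0.97), with its highest levels of 16.7 and 23.5 CPM in WT mouse 1 and Lpcat3 KOMac mouse 2.

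The genes that form HIF and control its stability gave 8 negative and 4 positive estimates. Of 14 listed genes besides *Hif1a*, 12 were tested (*Hif3a* and *Arnt2* were too low) and 0 were called. With edgeR, 2 were lower and 0 higher at an unadjusted p under 0.05, beside 2.64% of all genes tested. Between genotypes 5 did not overlap, all lower in Lpcat3 KOMac mice, beside 5.2% of all genes tested. The median log2 fold change was -0.10. *Egln2*, a prolyl hydroxylase that marks HIF subunits for destruction when oxygen is present, was at 73.8, 64.5 and 66.7 CPM in WT and at 58.6, 59.6 and 58.5 CPM in Lpcat3 KOMac mice. Its log2 fold change was -0.21 (standard error 0.08) with an unadjusted edgeR p of 0.0387. *Rbx1*, the RING subunit of the VHL ubiquitin ligase and of other cullin ligases, was at 63.6, 57.9 and 59.5 CPM in WT and at 52.0, 50.6 and 53.6 CPM in Lpcat3 KOMac mice. Its log2 fold change was also -0.21 (standard error 0.08), with an unadjusted edgeR p of 0.0311. The other 3 without overlap were *Cited2*, which competes with HIF1A for the coactivators CBP and p300 (-0.30), and the elongin genes *Elob* (-0.16) and *Eloc* (-0.14), whose products are adaptors of the same ligase.

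These differences depended on the fit. With total counts alone, 0 genes of this list had an unadjusted p under 0.05, beside 1.97% of all genes. Its median log2 fold change was then -0.01, beside 0.06 over all genes, whose median was -0.04 with TMM scaling. With hepatocyte transcripts as a covariate 4 genes had one, beside 9.17% of all genes, namely *Cited2* (-0.36, edgeR p 0.00137), *Egln2* (-0.24, p 0.00740), *Rbx1* (-0.22, p 0.0142) and *Epas1* (0.27, p 0.0249), and none was called. *Epas1*, which encodes HIF2A and is abundant in endothelial cells, gave the largest positive estimate of the list, 0.38 (standard error 0.32). It was at 91.9, 49.0 and 45.1 CPM in WT and at 79.2, 99.1 and 63.9 CPM in Lpcat3 KOMac mice. Its highest libraries were WT mouse 1 and Lpcat3 KOMac mouse 2, those with the most hepatocyte transcripts. Without WT mouse 1 its log2 fold change was 0.78 with an unadjusted edgeR p of 0.00942, in a fit where 12.3% of all genes were under 0.05. The other prolyl hydroxylases, *Egln1* and *Egln3*, which are themselves HIF targets and were counted with the hypoxia response genes, had log2 fold changes of 0.05 and 0.36.

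**Figure D5:**
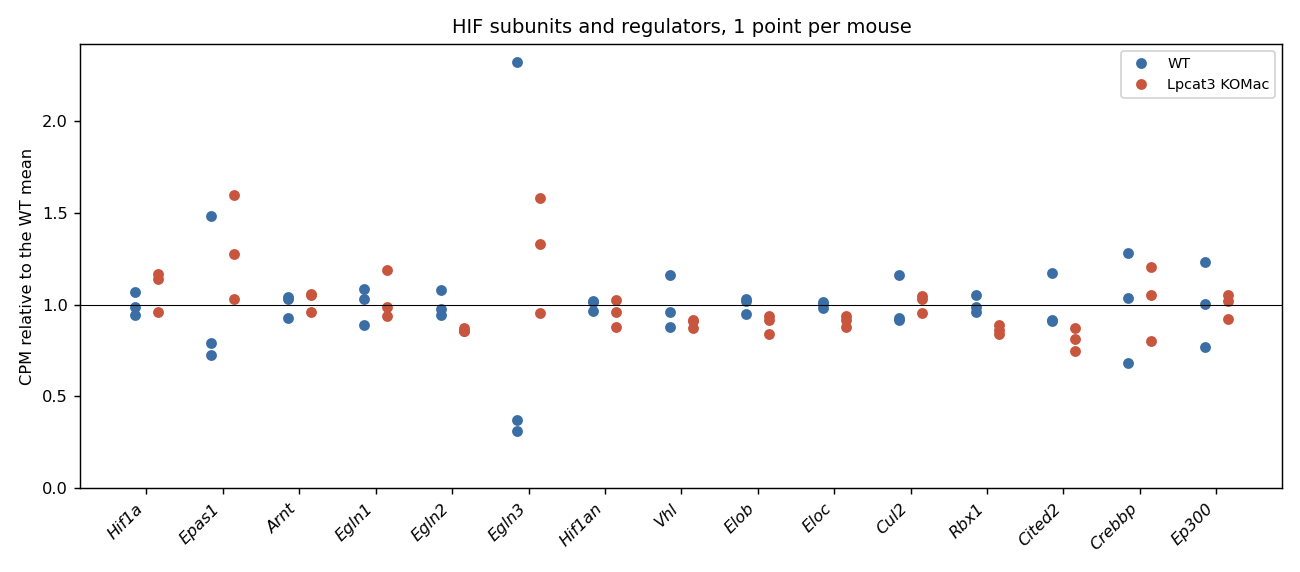
CPM divided by the WT mean (vertical axis, from 0) of *Hif1a*, its partners and regulators and 2 coactivators, 1 point per mouse, WT in blue and Lpcat3 KOMac in red. *Egln2*, *Elob*, *Eloc*, *Rbx1* and *Cited2* are lower in all 3 Lpcat3 KOMac mice than in all WT mice, and the other genes overlap.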

How the data were processed

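The authors deposited 1 table of raw read counts per mouse for 49315 Ensembl genes, without normalization. The submitters' processing notes name Trimmomatic 0.36, STAR 2.5.2b, featureCounts of Subread 1.5.2 and the build GRCm38. The strand setting and the treatment of multi-mapped reads are not given in the sources used here. Symbols came from GENCODE M21, which held 49056 of the identifiers.

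Genotypes were compared with edgeR 4.0.16 (R 4.3.3), after TMM scaling and filtering by expression with the default settings (minimum count 10), by a robust quasi-likelihood test with no covariate. Benjamini-Hochberg adjustment ran over 16134 genes, and genes under 0.05 were called. The standard error is the size of the log2 fold change over the root of F, and 95% intervals use the degrees of freedom of the test. Single genes were also compared by a two-sided exact permutation test of mean log2 CPM, without a prior count. The log2 CPM behind the hepatocyte covariate and the length offset used a prior count of 2. A level of 3 counts or fewer was the floor of detection. Libraries held 44954224 to 71392812 counts, and the SDs and intervals, which are over mice, include the counting error.

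The 10 genes, the lists and the tests were chosen with earlier results of these data known. Named from each pathway list were the 3 genes most abundant per kilobase, every gene with an unadjusted p under 0.05 and the largest estimate in each direction. Genes without overlap between genotypes, the isoenzyme families and the comparison of highest and lowest libraries were added after their values were seen. Replicate numbers come from the labels and did not pair the mice.

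The alternatives were scaling by DESeq2's size factors, scaling by total counts alone, no expression filter, a minimum of 10 counts per gene in each library, DESeq2 1.42.0 itself, limma-voom (limma 3.58.1), a replicate block, hepatocyte transcripts as a covariate, a length offset and fits without 1 mouse each. A fit without the 2 libraries richest in hepatocyte transcripts was added after seeing the data. Some isoenzymes and the shares that need them are not reported here. The scripts were tested on simulated counts.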

Additional observations from a re-analysis of the deposited data

How the results depend on the processing

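With the fit of the report and with every alternative listed, 0 of the 10 genes and 0 genes of the 6 pathway lists were called. Estimates near 0 changed sign easily. *Pfkfb3* (0.00) was at -0.0070 without the expression filter, -0.0102 with limma-voom, -0.0094 with the replicate block and -0.0159 with the length offset. *Eno1* was at -0.0337 with hepatocyte transcripts as a covariate. With total counts alone *Ldha* was at 0.0242, and 1 of the 10 genes had an unadjusted edgeR p under 0.05 (*Pfkl*, 0.0291), beside 1.97% of all genes. The median log2 fold change of the 10 was 0.14 in that fit, beside 0.06 over all genes. Medians were then 0.14 for other glycolysis, -0.0093 for the HIF pathway and 0.0080 for the pentose phosphate list. *Pck1* was at 0.12 with limma-voom and 0.41 with the replicate block. The cause was not tested.

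Over all genes DESeq2 called 12, and edgeR's 426 genes at an unadjusted p under 0.05 became 138 with the replicate block and 1479 with the covariate. Same-numbered mice had correlations of -0.30, -0.60 and 0.36 between their deviations, so the numbers were not taken as pairs. In the fit of 2 mice against 2, chosen after seeing the data, 1767 genes had an unadjusted p under 0.05 (10.96%) and 4 of the 10 did not overlap, beside 41.2% of all genes. The other glycolysis median was 0.13, *Hk2* was at -0.20, *Ldha* at 0.18, *Mpc2* at 0.11 and *Pck1* at 1.01.

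Leaving out each mouse in turn gave from 179 (without Lpcat3 KOMac mouse 1) to 2028 genes (without WT mouse 1) at an unadjusted p under 0.05. Of the 10 genes, 0 to 2 passed it and 1 to 3 did not overlap, beside 1.09% to 12.3% and 10.3% to 32.2% of all genes. Medians ran from 0.0027 to 0.18 for other glycolysis, from -0.15 to -0.053 for the HIF pathway, from -0.10 to -0.017 for pentose phosphate genes and from -0.95 to 2.19 for hepatocyte enzymes. Log2 fold changes ran from -0.09 to 0.25 for *Hk2*, -0.0322 to 0.11 for *Aldoa*, -0.32 to 0.32 for *Ldha*, -0.0898 to 0.12 for *Pfkfb3* and -0.0591 to 0.13 for *Eno1*. They ran from -2.83 to 0.30 for *Ddit4*, -0.39 to 0.28 for *Mpc2*, -1.59 to 1.55 for *Pck1*, -0.23 to 0.0072 for *G6pdx*, -0.11 to 2.95 for *G6pc* and -0.45 to 1.90 for *Ak4*. The 95% intervals show how precise the estimates were with 3 mice a genotype. The smallest difference that could be detected was not tested, and neither was the effect of depth.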

Other observations

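Pyruvate and the pentose phosphate pathway were the other exits of glucose carbon measured. Of 13 genes of pyruvate import, pyruvate dehydrogenase and its kinases and phosphatases, 13 were tested, 0 were called and 0 had an unadjusted p under 0.05 (edgeR), with a median log2 fold change of 0.00. *Pdk4*, a kinase that switches pyruvate dehydrogenase off, was at 9.53, 7.53 and 5.75 CPM in WT and at 10.7, 9.84 and 9.67 CPM in Lpcat3 KOMac mice. Beside 2.29% of all genes tested that were higher without overlap, it was the only gene of this list whose groups did not overlap. Its log2 fold change was 0.40 (standard error 0.21), with an unadjusted edgeR p of 0.103 over all mice. Without WT mouse 1 the unadjusted edgeR p of *Pdk4* was 0.0176, in a fit where 12.3% of all genes were under 0.05. The subunit genes *Pdha1*, *Pdhb* and *Dld* had log2 fold changes of -0.09, -0.05 and -0.05, and *Mpc2*, a subunit of the mitochondrial pyruvate carrier, had the most negative value, -0.19.

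All 7 pentose phosphate genes were tested, 0 were called and 0 had an unadjusted p under 0.05 (edgeR), with a median log2 fold change of -0.09. *Tkt*, the transketolase of the non-oxidative branch, was at 345, 327 and 346 CPM in WT and at 354, 408 and 360 CPM in Lpcat3 KOMac mice. Beside 2.29% of all genes tested that were higher without overlap, *Tkt* was the only gene of the list without overlap. Its log2 fold change was 0.14 (standard error 0.09). *G6pdx*, which starts the pathway and yields NADPH, had the most negative log2 fold change, -0.14 (standard error 0.15), and *Taldo1* was at -0.04.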
